A study of Rattus norvegicus with 15 samples.

Results

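The comparison set exercised against sedentary Wistar rats, both refed ad libitum, and covers 10 of the 15 liver RNA-seq libraries of the series, 5 in each group. Wistar is an outbred laboratory rat strain. The libraries titled Relapse exercise came from rats given treadmill exercise while they lost weight and while the lower weight was kept, and those titled Relapse sedentary came from rats without it. Both groups had then eaten freely for 24 hours, which the labels call the first day of weight regain, before the liver was taken and frozen. The remaining 5 libraries, from sedentary rats on an energy gap-matched diet, are not compared here. They entered the choice of genes to test and the shared estimate of the spread between libraries. Libraries were assigned through the column names in the labels, which the values themselves cannot check. The labels used here give no sex, age, body weight, food intake or time since the last exercise, and do not say that each library came from a separate animal. The p-values therefore measure only the spread between these samples, which may be technical.

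Refeeding after restriction raises insulin and glucose at the liver. Insulin activates SREBP-1c and glucose activates ChREBP, factors that switch on the enzymes of fatty acid synthesis, while SREBP-2 switches on the enzymes of cholesterol synthesis when the membranes of the endoplasmic reticulum are poor in sterol. Fasting does the reverse: glucagon, glucocorticoids and PPAR-alpha raise genes of gluconeogenesis, of amino acid breakdown and of fatty acid oxidation. A separate arm, the integrated stress response, uses the factor Atf4 to raise amino acid synthesis and the aminoacyl-tRNA synthetases, which charge tRNAs for translation.

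The tissue label was checked against marker genes. The summed FPKM of 5 hepatocyte markers (Apoa1, Ttr, Serpina1, Fgb and Tf) ran from 38084 to 47641 in sedentary and from 37737 to 49536 in exercised libraries, where FPKM is a fragment count divided by transcript length and library total. Skeletal muscle markers summed to at most 0.537 FPKM. Exocrine pancreas markers summed to 10.1 to 36.5 FPKM in sedentary and 7.82 to 33.7 FPKM in exercised libraries. Vsig4 of the Kupffer list, Alas2 of the erythroid list and Prss1 of the pancreas list were listed at 0 in all 10 libraries. Other members of these lists were expressed, and the Kupffer and erythroid sums are given below. Relative to the deepest library, depth ran from 0.678 to 1 in sedentary and from 0.824 to 0.946 in exercised libraries, and absolute depth is unknown. From 11009 to 11278 genes per library reached 1 FPKM. Correlations of log2 values lay between 0.967 and 0.984 within groups and between 0.962 and 0.979 across them. Exercised library 5 had the highest summed FPKM, 911546, against a median of 735014 in its group. That sum includes Alb at 41320 FPKM, a gene whose value was missing in the rest of the group, so these sums are not fully alike.

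At a limma adjusted p under 0.05, exercised rats had 282 higher (2.51%) and 366 lower genes (3.26%) among the 11216 tested. Counts in the gene lists below are to be read against these shares. Without adjustment, 2361 of the 11216 genes had a limma p under 0.05, in either direction. That is the reference for list counts at an unadjusted p under 0.05. The median difference was 0.49 among the higher genes and −0.52 among the lower ones on the log2(FPKM + 1) scale, and 0.01 over all genes tested. The 5 libraries of each group did not overlap for 353 genes that were higher (3.15%) and 411 that were lower (3.66%), which included 209 and 281 of the genes that passed. Among genes with a mean of 1 to 3 FPKM, 0.752% were higher and 0.902% lower, against 4.45% and 5.12% of those with 30 to 100 FPKM. At 300 FPKM or more the shares were smaller again, 3.24% and 2.97%. On the first principal component, which held 24.7% of the variance of the 10 libraries, all exercised libraries lay between 2.78 and 20.6 and all sedentary libraries between −27.4 and −3.65. Of the calls, 103 higher and 170 lower genes passed in every one of 10 leave-one-out fits, each without 1 library. The count of higher genes fell to 134 without sedentary library 2, 146 without sedentary library 5 or exercised library 4, 163 without exercised library 1, 171 without sedentary library 1 and 183 without exercised library 2. The count of lower genes fell to 197 without exercised library 1, 208 without sedentary library 2 and 221 without sedentary library 5. With the libraries scaled to the same sum, 161 genes were higher and 314 lower, so that 66.1% of the calls were lower against 56.5%.

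**Figure D1:**
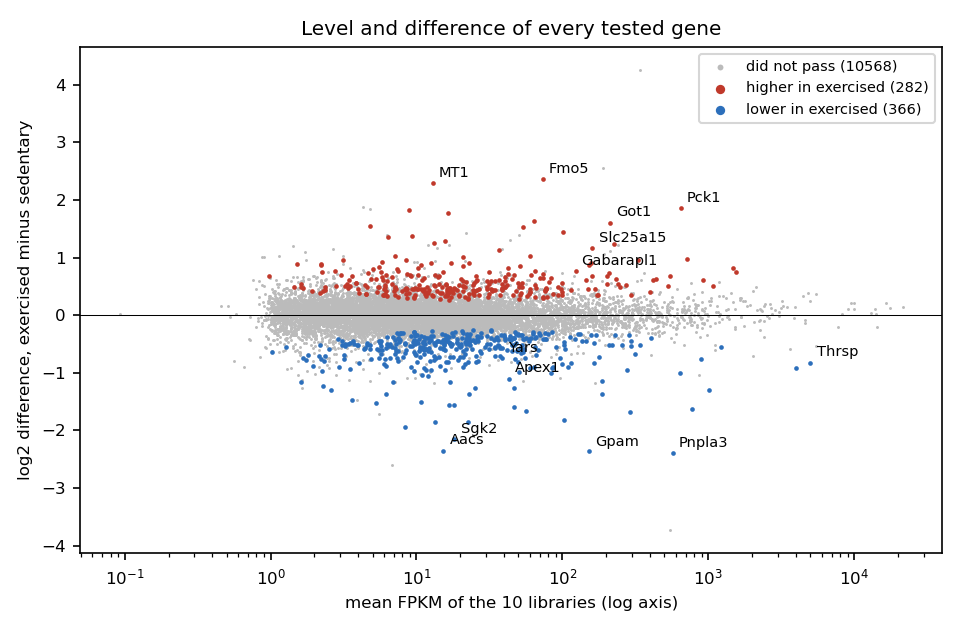
Mean FPKM of the 10 libraries (log axis) against the log2 difference, exercised minus sedentary, for each tested gene, with 1 point per gene. The 282 higher genes (red) and 366 lower genes (blue) stand against the genes that did not pass (grey). Both reach high levels, with 12 higher and 11 lower genes at a mean of 300 FPKM or more. Thrsp, a lower gene, had a mean of 6374 FPKM in sedentary and 3641 FPKM in exercised rats.

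Genes of cholesterol synthesis made up the list with the largest share of lower genes among those examined. Of 23 tested members of the mevalonate and sterol list 13 were lower and 0 higher in exercised rats, with a median difference of −0.61 against 0.01 over all genes. In this list 1 member was higher at an unadjusted p under 0.05. The lower genes ran along the pathway, from Acat2 at its entry through Mvk, Pmvk, Mvd and Fdps to Sqle, Lss, Msmo1, Nsdhl, Hsd17b7 and Dhcr7, with the acetoacetyl-CoA synthetase Aacs, which feeds ketone-derived carbon into it. Within the bulk tissue, fewer cells of a type and less RNA per cell cannot be told apart.

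Aacs stood at 28.4, 33, 24.6, 19.5 and 25.2 FPKM in sedentary libraries 1 to 5 and at 1.98, 5.2, 4.44, 6.3 and 4.42 FPKM in exercised libraries 1 to 5. Every sedentary library was far above every exercised one. The log2 difference was −2.35 ± 0.21 (SE; limma adjusted p = 3.65e-05). Mvd, which decarboxylates mevalonate diphosphate, stood at 30, 37.7, 27.4, 17.4 and 24.4 FPKM in sedentary and at 6.18, 9.42, 8.99, 11.7 and 6.51 FPKM in exercised libraries, a difference of −1.56 ± 0.18 (limma adjusted p = 0.000221). The groups did not overlap, and sedentary library 4 was the lowest of its group for both genes. Sqle, the squalene epoxidase, stood at 38.8, 42.6, 36.7, 31.3 and 30.2 FPKM in sedentary and at 9.85, 16.5, 13.2, 18.7 and 14.7 FPKM in exercised libraries. All exercised libraries were below all sedentary ones (−1.26 ± 0.16, limma adjusted p = 0.000611).

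Fdps, the farnesyl diphosphate synthase and the most abundant of the lower sterol genes, stood at 940, 906, 731, 823 and 867 FPKM in sedentary and at 311, 403, 549, 478 and 428 FPKM in exercised libraries. Again no exercised library reached a sedentary one (−0.99 ± 0.15, limma adjusted p = 0.00189). Pmvk, Msmo1, Dhcr7, Hsd17b7 and Nsdhl, all chosen after their values were seen, had differences of −0.85, −0.91, −0.81, −0.71 and −0.51, with limma adjusted p-values between 0.00399 and 0.0144. Dhcr7 was the exception to the separation of the groups among these, since exercised library 4, at 51.4 FPKM, was above sedentary library 5, at 48.3 FPKM. The calls of Lss (−0.73, limma adjusted p = 0.0247) and Mvk (−0.37, 0.0264) were each lost in 5 of 10 leave-one-out fits, reaching 0.0707 and 0.071. Among sterol genes that did not pass, and chosen like these 2 after values were seen, Hmgcs1, which makes HMG-CoA in the cytosol, differed by −0.61 (limma adjusted p = 0.0717), and passed with median-of-ratios scaling (0.0416) and with library weights (0.0395).

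Outside the synthetic enzymes the sterol genes were less uniform. The list of cholesterol uptake and efflux had 1 lower and 0 higher genes of 17, with a median of 0.11, and 6 of the 17 were higher at an unadjusted p under 0.05 and 1 passed as higher without exercised library 3 or sedentary library 4. The lower gene was Soat2, which esterifies cholesterol in hepatocytes (27.5 ± 3.47 to 19 ± 2.76 FPKM, mean ± SD, n = 5; −0.51 ± 0.11, limma adjusted p = 0.0169). Srebf2, the gene of SREBP-2, differed by −0.13 and did not pass (limma adjusted p = 0.70).

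The windows around the gene starts are shown for Mvd and Fdps, the lower sterol genes of smallest p whose window held CCAAT, because SREBP factors are known to act beside NF-Y, which binds CCAAT. Each window holds 250 bases before and 50 after the RefSeq gene start on build GRCr8, and capitals mark CCAAT on either strand (CCAAT or ATTGG). Mvd lies at chr19:67414925-67415224 and Fdps at chr2:176804767-176805066, both on the minus strand.
Mvd: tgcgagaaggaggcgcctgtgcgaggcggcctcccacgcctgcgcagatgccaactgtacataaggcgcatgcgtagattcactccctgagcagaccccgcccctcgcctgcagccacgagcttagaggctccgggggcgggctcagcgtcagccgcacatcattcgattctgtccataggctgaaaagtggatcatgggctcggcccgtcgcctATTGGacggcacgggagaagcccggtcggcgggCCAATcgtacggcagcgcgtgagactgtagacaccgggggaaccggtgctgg
Fdps: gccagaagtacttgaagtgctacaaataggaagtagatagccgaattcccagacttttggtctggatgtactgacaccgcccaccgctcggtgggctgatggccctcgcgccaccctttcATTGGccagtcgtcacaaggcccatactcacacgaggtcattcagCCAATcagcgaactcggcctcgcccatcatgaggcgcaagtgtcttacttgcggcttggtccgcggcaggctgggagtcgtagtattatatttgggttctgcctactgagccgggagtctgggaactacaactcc
Of the 13 lower sterol genes 10 had a window, and CCAAT was present in 7 of the 10, against 37.7% of all 27457 windows. The sterol regulatory element, searched as TCACNCCAC on both strands, was in 0 of the 10 windows and in 1.13% of all windows. With so low a share over all windows, 0 of 10 cannot show that these genes lack the element. These matches describe the windows alone.

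Some genes of fatty acid synthesis, Fasn and Acly among them, were lower as well. Of 18 tested members of the list 7 were lower and 1 higher, with a median of −0.52, and the list of lipogenic regulators had 3 lower and 0 higher of 21, with 1 higher at an unadjusted p under 0.05. Fasn stood at 1306, 1374, 1138, 711 and 1324 FPKM in sedentary and at 278, 502, 387, 436 and 285 FPKM in exercised libraries. Sedentary library 4 stood apart from the other sedentary libraries toward the exercised ones, and the groups still did not overlap (−1.63 ± 0.26, limma adjusted p = 0.00275). Sedentary library 4 was also the lowest of its group for Acly, the ATP citrate lyase, which stood at 1586, 1608, 1585, 1068 and 1297 FPKM in sedentary and at 506, 682, 579, 739 and 419 FPKM in exercised libraries (−1.30 ± 0.21, limma adjusted p = 0.00264).

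Thrsp, a lipogenic gene of liver that responds to thyroid hormone and carbohydrate, was the most abundant gene of the list to pass. It stood at 7387, 6774, 6143, 6001 and 5565 FPKM in sedentary and at 2756, 3442, 4063, 3385 and 4557 FPKM in exercised libraries. The groups were apart, and sedentary library 5 and exercised library 5 lay nearest to each other (−0.82 ± 0.14, limma adjusted p = 0.00366). Slc25a1, the mitochondrial citrate carrier that supplies Acly, was lower by a smaller amount, from 302 ± 24.1 to 213 ± 31.1 FPKM (−0.51 ± 0.11, limma adjusted p = 0.012). Acacb, chosen after its values were seen, makes malonyl-CoA, which restrains Cpt1a, and differed by −0.66 ± 0.17 (limma adjusted p = 0.0298). Exercised library 4, at 64.7 FPKM, lay within the sedentary range of Acacb, from 58.9 to 69.5 FPKM. Its call was lost in 6 of 10 leave-one-out fits, reaching 0.0782, and with libraries scaled to the same sum (0.0538). The elongase Elovl6 was low, at 3.68 ± 2.28 FPKM in sedentary and 0.85 ± 0.453 FPKM in exercised libraries, with overlapping groups (−1.22 ± 0.29, limma adjusted p = 0.0209). Its call was lost in 4 of 10 leave-one-out fits, reaching 0.0589, and with only the 2 groups fitted (0.05). This list had 4 lower genes without exercised library 1 or sedentary library 1 or 2.

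Elongation and desaturation of polyunsaturated chains did not move in 1 direction. Elovl2, which lengthens polyunsaturated fatty acids, was the 1 higher gene of the list, at 27.4, 30.3, 29.4, 33.4 and 25.5 FPKM in sedentary and 33.9, 36.8, 44.7, 47.1 and 36.9 FPKM in exercised libraries. Its groups were separate but close (0.43 ± 0.11, limma adjusted p = 0.0339). Fads2, a desaturase of polyunsaturated chains, was lower (−0.56 ± 0.15, limma adjusted p = 0.0449). The Elovl2 call was lost in 6 of 10 leave-one-out fits, reaching 0.0866, and with the libraries scaled to the same sum (0.0654), and that of Fads2 in 7 leave-one-out fits, reaching 0.112. Both were chosen after their values were seen. The most abundant desaturase, Scd1, differed by −0.53 and did not pass (limma adjusted p = 0.177), with 4499 ± 767 FPKM left in exercised against 6453 ± 930 in sedentary rats.

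Among the regulators, Insig1, which holds the SREBP escort in the endoplasmic reticulum and is itself an SREBP target, stood at 407, 475, 534, 441 and 328 FPKM in sedentary and at 164, 241, 66.5, 122 and 133 FPKM in exercised libraries. No exercised library came near the sedentary range (−1.68 ± 0.28, limma adjusted p = 0.00366). Mlx, the obligate partner of ChREBP, was lower by −0.38 ± 0.08 with groups apart (75.1 ± 3.66 to 57.7 ± 4.56 FPKM, limma adjusted p = 0.00926), whereas Mlxipl, which encodes ChREBP, did not pass (−0.34, 0.134). Srebf1 differed by −0.68 ± 0.16 (limma adjusted p = 0.0197), a call that fell away without sedentary library 2 (0.0543) or exercised library 1 (0.051).

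Of 11 glycerolipid synthesis genes, 1 was lower and 0 higher, with 1 higher at an unadjusted p under 0.05, and of 15 lipid droplet and lipolysis genes 4 were lower and 0 higher, with 2 higher at an unadjusted p under 0.05. Gpam, the glycerol-3-phosphate acyltransferase, stood at 279, 429, 215, 102 and 258 FPKM in sedentary and at 46.6, 59.7, 43.1, 38.9 and 36.4 FPKM in exercised libraries. Its spread was wide among sedentary libraries, and sedentary library 4 was again the lowest, yet above every exercised one (−2.37 ± 0.31, limma adjusted p = 0.000652). Pnpla3, a droplet protein, stood at 999, 1063, 1062, 714 and 950 FPKM against 140, 154, 213, 243 and 164 FPKM, with the groups far apart (−2.40 ± 0.31, limma adjusted p = 0.000611). The droplet coats Plin2 (−0.90 ± 0.20, limma adjusted p = 0.0144) and Plin3 (−1.26 ± 0.28, 0.0147) were lower too. Abhd5, the coactivator of the lipase ATGL, differed by −0.52 ± 0.15 (limma adjusted p = 0.0479), a call absent in 9 of 10 leave-one-out fits, reaching 0.124, and with the libraries scaled to the same sum (0.0538) or quantile normalized (0.0537).

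**Figure D2:**
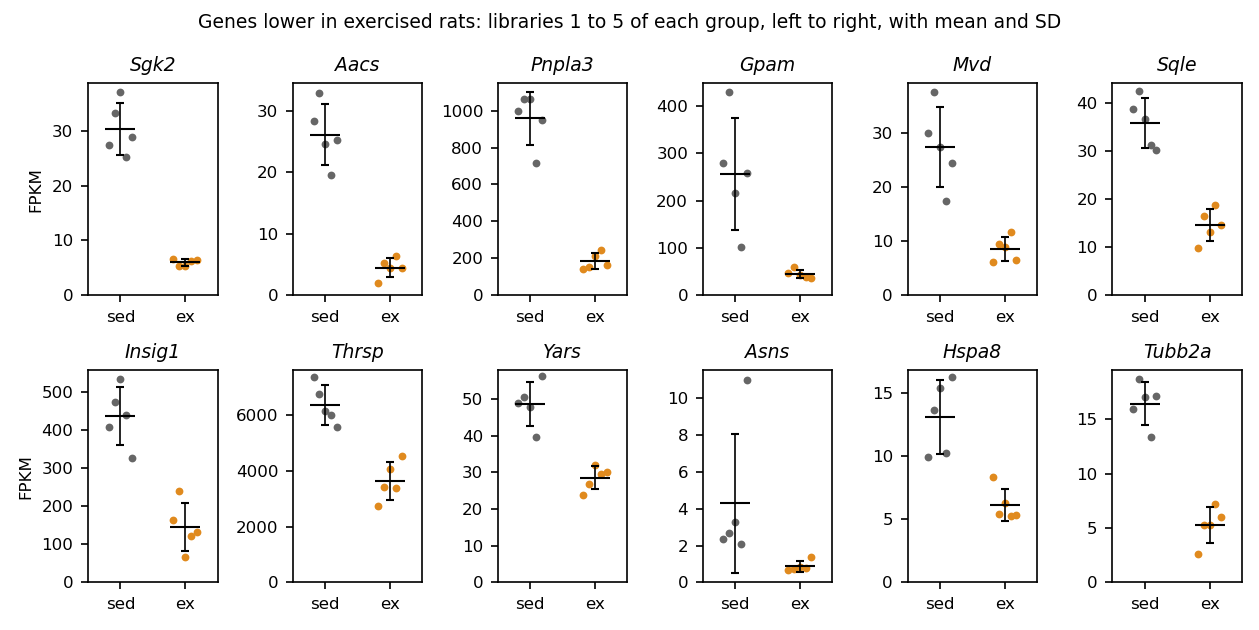
FPKM of 12 genes that were lower in exercised rats, with 1 point per library in library order from left to right, and the mean and SD of each group of 5. For each gene the exercised points lie below every sedentary point, and for Gpam sedentary library 4, at 102 FPKM, lies nearest to them.

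Genes that supply sugar carbon and NADPH were lower in single members. Of 23 genes of glycolysis and sugar entry 3 were lower and 0 higher, with 2 higher at an unadjusted p under 0.05. Gckr, a regulatory protein of sugar phosphorylation in liver, stood at 57.9, 74.9, 86.9, 53.2 and 55.4 FPKM in sedentary and at 35.9, 41.3, 43.3, 39.4 and 46.6 FPKM in exercised libraries (−0.64 ± 0.13, limma adjusted p = 0.012). Its groups were apart. The calls of Pklr, the liver pyruvate kinase (−0.77, limma adjusted p = 0.0298), and Gapdh (−0.44, 0.0303) were each lost in 7 of 10 leave-one-out fits, reaching 0.0723 and 0.0826. Neither passed with the libraries scaled to the same sum (0.0524 and 0.0535), nor Pklr with quantile normalization (0.0563). The list kept 1 lower gene without exercised library 1, 3 or 5 or without sedentary library 2, 3 or 5, and with libraries scaled to the same sum.

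In the pentose phosphate list 2 of 14 were lower and 0 higher, with 3 higher at an unadjusted p under 0.05. Rpia, the ribose-5-phosphate isomerase, was lower, from 13.2 ± 2.87 to 7 ± 1.05 FPKM (−0.81 ± 0.13, limma adjusted p = 0.00329). This list had 1 lower gene in each leave-one-out fit except those without exercised library 3 or sedentary library 4. Of 12 genes of the pyruvate dehydrogenase complex and its kinases 2 were lower and 0 higher, with a median of −0.29 and 2 higher at an unadjusted p under 0.05. Dlat, the acetyltransferase core of the complex, stood at 28.6, 34.9, 31.9, 22 and 27.1 FPKM in sedentary and at 14.4, 20, 21.1, 14 and 11.3 FPKM in exercised libraries (−0.82 ± 0.16, limma adjusted p = 0.00926). Pdhx, which anchors the third enzyme of the complex, was lower by −0.47 ± 0.11 (limma adjusted p = 0.0195), a call that fell away without exercised library 4 (0.05) or sedentary library 2 (0.057), where the list had 1 lower gene. The kinase gene Pdk4, a marker of fasting, did not pass (−0.60, limma adjusted p = 0.116).

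Genes that take part in gluconeogenesis differed in single members. Of 24 tested genes 2 were higher and 0 lower, with 0 lower also at an unadjusted p under 0.05 and a median of 0.14. Got1, the cytosolic aspartate aminotransferase of the malate-aspartate shuttle, stood at 97.4, 95.3, 140, 113 and 67.8 FPKM in sedentary and at 383, 462, 245, 223 and 281 FPKM in exercised libraries. Exercised libraries 1 and 2 were the highest and the groups were apart (1.61 ± 0.23, limma adjusted p = 0.00143). Pck1, the cytosolic PEP carboxykinase, stood at 240, 256, 523, 283 and 107 FPKM in sedentary and at 1494, 1417, 374, 954 and 825 FPKM in exercised libraries. Exercised libraries 1 and 2 were again highest, and exercised library 3 lay below sedentary library 3. The difference was 1.86 ± 0.42 (limma adjusted p = 0.0182), a call that fell away without exercised library 1 (0.0528), which left the list with 1 higher gene. Without sedentary library 3 the list had 4.

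Other genes known to rise in fasting were not uniform. Sds, the serine dehydratase, was highest in exercised libraries 1 and 2, at 493 and 503 FPKM, and lowest in sedentary library 5, at 44.3 FPKM, and did not pass (1.22 ± 0.40, limma adjusted p = 0.0881). Tat, the tyrosine aminotransferase, ran from 217 to 985 FPKM in exercised libraries and did not pass (−0.51, limma adjusted p = 0.443). The coactivator Ppargc1a differed by −0.08 (limma adjusted p = 0.80) and Igfbp1, which insulin represses, by 0.61 ± 0.70 (0.686). In Tat and Igfbp1, as in Pck1, exercised libraries 1 and 2 were the highest of their group.

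Some genes of nitrogen disposal were higher, Slc25a15 with the smallest p. Of 16 genes of the urea cycle and ammonia handling 5 were higher and 0 lower, with a median of 0.32 and 1 lower at an unadjusted p under 0.05. Slc25a15, the mitochondrial ornithine carrier of the cycle, stood at 95.4, 98.7, 90.4, 122 and 85 FPKM in sedentary and at 197, 248, 237, 242 and 190 FPKM in exercised libraries. The lowest exercised library, number 5, was well above the highest sedentary library, number 4 (1.17 ± 0.11, limma adjusted p = 3.65e-05). The other 4 were the cationic amino acid carrier Slc7a2 (0.61, limma adjusted p = 0.0258), the glutamate dehydrogenase Glud1 (0.40, 0.0297), the neutral amino acid carrier Slc38a4 (0.61, 0.0297) and Asl, which splits argininosuccinate (0.54, 0.0339). Each of these 4 lost its call in 5 to 8 of 10 leave-one-out fits, reaching 0.0706, 0.0747, 0.0791 and 0.087, and with the libraries scaled to the same sum (0.0546, 0.0625, 0.0546 and 0.0712). This list had 1 higher gene without exercised library 1, 2 or 4 or sedentary library 2 or 5, 2 without sedentary library 1, and 3 after quantile normalization.

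In amino acid breakdown 3 of 45 were higher and 0 lower, with 2 lower at an unadjusted p under 0.05. All 3 acted on tryptophan or valine: Kmo, the kynurenine monooxygenase (63.8 ± 5.32 to 87.2 ± 9.87 FPKM, 0.44 ± 0.09, limma adjusted p = 0.0116), Hibadh (154 ± 10.1 to 196 ± 10.1 FPKM, 0.34 ± 0.07, 0.0115) and Aldh6a1 (0.36 ± 0.10, 0.0458). The Aldh6a1 call was lost in 7 of 10 leave-one-out fits, reaching 0.115, with the libraries scaled to the same sum (0.127) and with quantile normalization (0.0861). Ppm1k, the phosphatase that activates branched-chain ketoacid dehydrogenase, stood at 7.25, 6.79, 7.45, 15.5 and 7.86 FPKM in sedentary and at 24, 20.7, 22.9, 23 and 21.7 FPKM in exercised libraries. Sedentary library 4 was well above the rest of its group and the groups remained apart (1.29 ± 0.19, limma adjusted p = 0.00166).

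In methionine and one-carbon metabolism 3 of 28 were higher and 1 lower. Mat1a, which makes S-adenosylmethionine in liver, stood at 1078, 957, 1188, 1199 and 854 FPKM in sedentary and at 2262, 2537, 1471, 1633 and 1580 FPKM in exercised libraries (0.82 ± 0.16, limma adjusted p = 0.0084). Ahcy, which clears the product of methyl transfer, stood at 419, 424, 458, 429 and 376 FPKM against 758, 785, 656, 556 and 631 FPKM (0.68 ± 0.10, limma adjusted p = 0.00228). For both genes the groups were apart and exercised libraries 1 and 2 were the highest. Mat2b, a regulatory subunit of the synthetase, was higher by 0.35 ± 0.08 (limma adjusted p = 0.0229), a call absent in 4 of 10 leave-one-out fits, reaching 0.0597, and with libraries scaled to the same sum (0.0574). Psph, the last enzyme of serine synthesis, was the lower one (−0.79 ± 0.21, limma adjusted p = 0.0391), but did not pass in 7 of 10 leave-one-out fits, reaching 0.104. This list had 2 lower genes without exercised library 5 or sedentary library 4 and 0 without exercised library 1 or 3 or sedentary library 1 or 5.

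Of 26 mitochondrial fatty acid oxidation genes 2 were higher and 1 lower, with a median of 0.21. Cpt1a, the carnitine palmitoyltransferase that admits long-chain fatty acids to mitochondria, stood at 20.5, 19.6, 32.9, 50.9 and 15.8 FPKM in sedentary and at 71.5, 71.8, 77.4, 126 and 51.4 FPKM in exercised libraries. The groups touched, with sedentary library 4 at 50.9 and exercised library 5 at 51.4 FPKM (1.54 ± 0.27, limma adjusted p = 0.0043). The acyl-CoA dehydrogenase Acad11 (0.46, limma adjusted p = 0.0307) and the acyl-CoA synthetase Acsl5 (−0.39, 0.0386) lost their calls in 7 and 8 of 10 leave-one-out fits, reaching 0.0811 and 0.0975, and with the libraries scaled to the same sum (0.0729 and 0.0603), and Acsl5 also with median-of-ratios scaling (0.0684). This list had 3 higher genes without exercised library 1 or sedentary library 3 and 1 without exercised library 2 or 4 or sedentary library 1 or 2, and it had 4 after quantile normalization. Ppara differed by 0.27 and did not pass (limma adjusted p = 0.371).

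Of 26 genes of the PPAR-alpha, peroxisomal and omega oxidation list 3 were higher and 0 lower, with 3 lower at an unadjusted p under 0.05. Acot12, a cytosolic acetyl-CoA hydrolase, stood at 31.3, 27.4, 33.1, 37.7 and 25.6 FPKM in sedentary and at 53.6, 52, 47.1, 52.2 and 42.6 FPKM in exercised libraries (0.67 ± 0.11, limma adjusted p = 0.00366). Slc25a47, a carrier of liver mitochondria, was higher by 0.88 ± 0.19 (105 ± 16.9 to 196 ± 44.5 FPKM, limma adjusted p = 0.0161). Ech1, an isomerase of unsaturated fatty acid oxidation, was higher by 0.49 ± 0.14 (limma adjusted p = 0.0455), a call absent in 8 of 10 leave-one-out fits, reaching 0.108, and with the libraries scaled to the same sum (0.0895). This list had 5 higher genes without sedentary library 3, and 2 without exercised library 1, 2, 3 or 4 or sedentary library 1, 2, 4 or 5. The PPAR-alpha targets Angptl4 (0.45, limma adjusted p = 0.441) and Fgf21 (−1.16, 0.262) did not pass, and Fgf21 ran from 0.791 to 15.4 FPKM within the exercised group.

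Single peroxisomal and bile acid genes outside that list were higher too. Acnat2, of a family of acyltransferases that join acyl groups to amino acids, stood at 139, 76.6, 166, 198 and 116 FPKM in sedentary and at 322, 313, 260, 324 and 351 FPKM in exercised libraries, with groups apart (1.23 ± 0.20, limma adjusted p = 0.00269). Of 24 bile acid genes 2 were higher and 0 lower, with 2 lower at an unadjusted p under 0.05. Amacr, the racemase of branched fatty acids and bile acid precursors, stood at 111, 113, 113, 137 and 72.7 FPKM against 221, 166, 225, 163 and 246 FPKM. Its groups were apart (0.90 ± 0.17, limma adjusted p = 0.00608). Slc27a5, which activates bile acids for conjugation, differed by 0.52 ± 0.14 (limma adjusted p = 0.0379), a call absent in 7 of 10 leave-one-out fits, reaching 0.0947, with the libraries scaled to the same sum (0.0814) and with quantile normalization (0.0637). The bile acid list had 1 higher gene without exercised library 1, 3 or 4 or sedentary library 1, 2 or 5, 3 in the other 4 fits, and 1 with the libraries scaled to the same sum. Cyp7a1, the rate-limiting enzyme of bile acid synthesis, did not pass (−0.21 ± 0.32, limma adjusted p = 0.759). In the tricarboxylic acid cycle 1 of 17 was higher and 0 lower, with 0 lower also at an unadjusted p under 0.05. That gene was Fh, the fumarase, at 125 ± 4.89 FPKM in sedentary and 172 ± 12.3 FPKM in exercised rats (0.45 ± 0.08, limma adjusted p = 0.00382). This list had 2 higher genes without exercised library 5 or sedentary library 3.

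**Figure D3:**
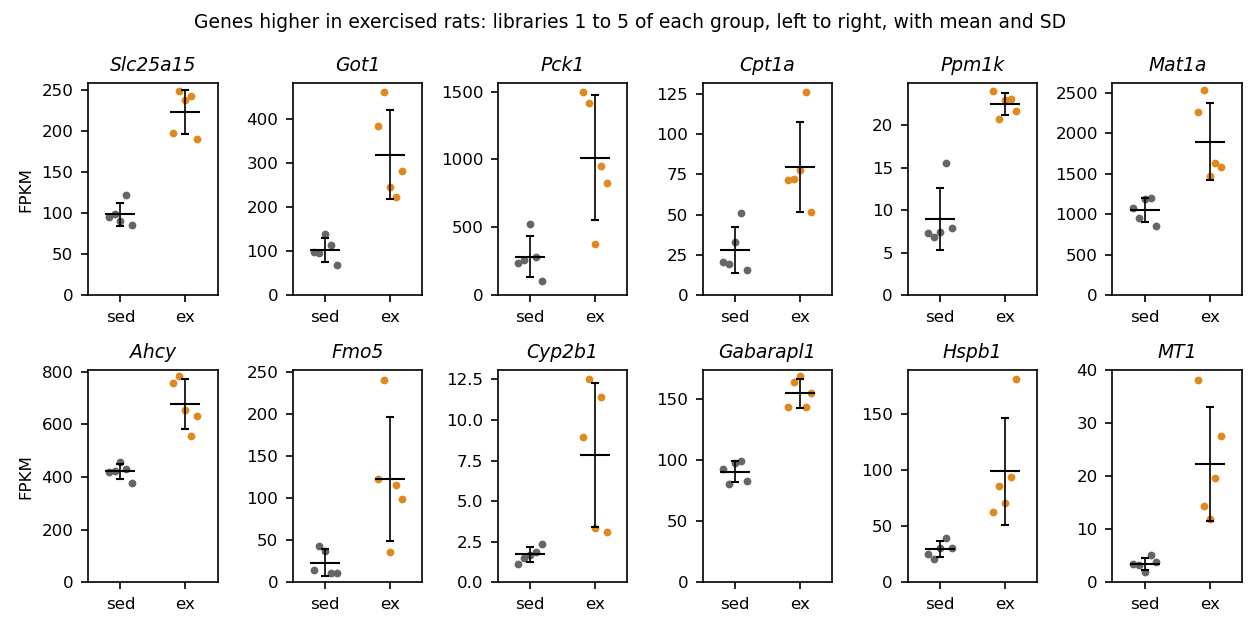
FPKM of 12 genes that were higher in exercised rats, with 1 point per library in library order from left to right, and the mean and SD of each group of 5. Slc25a15, Got1, Mat1a and Gabarapl1 have separate groups, whereas exercised library 3 lies within the sedentary range for Pck1, at 374 FPKM, and for Fmo5, at 36.6 FPKM.

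The list of drug-metabolizing oxidases and their receptors held 10 higher and 0 lower genes of 37, with 0 lower also at an unadjusted p under 0.05 and a median of 0.30. It included the flavin monooxygenases Fmo5 and Fmo1, of a family that oxidizes nitrogen and sulfur in foreign compounds. Fmo5 stood at 14.2, 43.4, 37.8, 10.7 and 11.1 FPKM in sedentary and at 123, 241, 36.6, 116 and 99.1 FPKM in exercised libraries. Both groups were split, with sedentary libraries 2 and 3 high and exercised library 3 at their level (2.36 ± 0.56, limma adjusted p = 0.0222), and the call was lost in 4 of 10 leave-one-out fits, reaching 0.061. Fmo1, at 39 ± 12.6 and 81.4 ± 29.3 FPKM, was higher by 1.03 ± 0.27 (limma adjusted p = 0.0369), a call absent in 5 of 10 leave-one-out fits, reaching 0.0966. In Fmo1 exercised libraries 1 and 2 were the highest.

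The xenobiotic receptors CAR and PXR and some of their targets were in the same list. Nr1i3, the gene of CAR, stood at 14.1, 9.9, 11.7, 12.5 and 18.1 FPKM in sedentary and at 22.1, 38.2, 27.2, 38.3 and 16.7 FPKM in exercised libraries. Exercised library 5 lay inside the sedentary range (1.01 ± 0.24, limma adjusted p = 0.0211), and the call was lost without exercised library 2 (0.0517) or 4 (0.0552) or sedentary library 2 (0.0621). Cyp2b1, the standard CAR target of rat liver, stood at 1.13, 1.53, 1.69, 1.9 and 2.38 FPKM in sedentary and at 8.93, 12.5, 3.35, 11.4 and 3.12 FPKM in exercised libraries. Its groups were apart, with exercised libraries 3 and 5 low (1.54 ± 0.33, limma adjusted p = 0.013), and reads of Cyp2b copies can be shared. Cyp3a23/3a1 differed by 0.62 ± 0.14 (limma adjusted p = 0.0161) and the same holds for Cyp3a copies. Nr1i2, the gene of PXR (0.36, limma adjusted p = 0.0465), Cyp2e1, a pericentral P450 (0.75, 0.0408), Cyp3a18 (0.63, 0.0368) and Cyp2j4 (0.63, 0.0473) lost their calls in 7 or 8 of 10 leave-one-out fits, reaching 0.118, 0.104, 0.0981 and 0.116. Nr1i2 and Cyp2j4 did not pass with the libraries scaled to the same sum (0.118 and 0.0538), nor Cyp2e1 with quantile normalization (0.057). This list had 4 higher genes without exercised library 1 or 2 or sedentary library 2 or 5, and 5 without exercised library 4. Nr1i2, Fmo1, Cyp3a18 and Cyp2j4 were chosen after their values were seen.

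Conjugation and retinoid genes held a few calls in each direction. Of 40 conjugation genes 2 were higher and 1 lower, with a median of −0.01. Over all tested genes 2.51% were higher and 3.26% lower. Nnmt, which methylates nicotinamide with S-adenosylmethionine, was higher by 0.68 ± 0.14 (121 ± 20.8 to 196 ± 43.9 FPKM, limma adjusted p = 0.0115), and Glyat, which joins acyl groups to glycine, by 0.49 ± 0.11 (0.0153).

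Of 27 steroid dehydrogenase and retinoid genes 1 was higher and 2 lower, where 2.51% and 3.26% of all tested genes were higher and lower. Retsat, which saturates retinol, stood at 43.4, 59, 64.9, 42 and 48.4 FPKM in sedentary and at 177, 60.2, 155, 176 and 182 FPKM in exercised libraries. A single exercised library, library 2, stayed in the sedentary range (1.44 ± 0.39, limma adjusted p = 0.0403), and the call was lost in 8 of 10 leave-one-out fits, reaching 0.0947. This list had 0 higher genes in 7 of those 10 fits and 2 without sedentary library 3. Rarb, a retinoic acid receptor, was lower, at 29.9, 31.8, 28.8, 21.9 and 27 FPKM against 15.5, 19.1, 15, 12.4 and 13.4 FPKM. No library of one group reached the other (−0.85 ± 0.14, limma adjusted p = 0.00372). Rdh11, a retinal reductase, was lower by −0.58 ± 0.11 (limma adjusted p = 0.00608).

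Single genes of the integrated stress response, Atf4 among them, were lower. Of 33 genes of the unfolded protein and integrated stress response 7 were lower and 1 higher, with a median of −0.09. Atf4, the central factor of the response, stood at 162, 186, 172, 145 and 161 FPKM in sedentary and at 116, 125, 120, 108 and 139 FPKM in exercised libraries. The groups were apart by a small margin (−0.44 ± 0.08, limma adjusted p = 0.00751). Atf5 (−0.53 ± 0.12, limma adjusted p = 0.0146) and Atf3 (−0.79 ± 0.20, 0.0278) were also lower, as were the kinases that sense lack of amino acids, Eif2ak4 (−0.49 ± 0.08, 0.00271), and stress of the endoplasmic reticulum, Eif2ak3 (−0.38 ± 0.09, 0.0191). Asns, the asparagine synthetase and a target of Atf4, stood at 2.38, 2.71, 3.3, 2.11 and 11 FPKM in sedentary and at 0.657, 0.743, 0.844, 0.769 and 1.38 FPKM in exercised libraries. Sedentary library 5 was far above its group, and the other 4 sedentary libraries still exceeded every exercised one (−1.30 ± 0.30, limma adjusted p = 0.02).

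Chaperones of the endoplasmic reticulum did not follow as a group. Pdia4, a disulfide isomerase, was lower (258 ± 9.63 to 182 ± 21.2 FPKM, −0.51 ± 0.09, limma adjusted p = 0.00432), while Hspa5, the chaperone BiP, stood at 438 ± 52.3 and 448 ± 69.5 FPKM (0.02 ± 0.12, 0.939). Ppp1r15b, which directs dephosphorylation of eIF2-alpha, was the higher gene (0.45 ± 0.12, limma adjusted p = 0.0391), chosen after its values were seen. Its call was lost in 8 of 10 leave-one-out fits, reaching 0.0884, and with the libraries scaled to the same sum (0.103). The Atf3 call was lost in 6 leave-one-out fits, reaching 0.0777, that of Asns without exercised library 1 (0.0514), and that of Eif2ak3 without exercised library 1 (0.051) or sedentary library 2 (0.0583). Without exercised library 1 the list had 4 lower genes, and it had 2 higher genes after quantile normalization.

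Of 30 aminoacyl-tRNA synthetases 5 were lower and 0 higher, with 0 higher also at an unadjusted p under 0.05, 15 lower at that threshold and a median of −0.22. Over all 11216 tested genes 2361 were under that threshold, in either direction. Yars, which charges tyrosine tRNA, stood at 49, 50.6, 47.8, 39.5 and 56.2 FPKM in sedentary and at 23.9, 26.9, 32.1, 29.5 and 30.2 FPKM in exercised libraries. The groups were apart (−0.75 ± 0.11, limma adjusted p = 0.0016). Farsb (−0.57 ± 0.12, limma adjusted p = 0.0141), Iars (−0.48 ± 0.10, 0.0142), Gars (−0.44 ± 0.10, 0.0173) and Tars (−0.34 ± 0.09, 0.0418), for phenylalanine, isoleucine, glycine and threonine, were lower by less. The Tars call was lost in 7 of 10 leave-one-out fits, reaching 0.106, and with the libraries scaled to the same sum (0.0648). The 6 members with a difference above 0, none of which passed, were Qars and the mitochondrial enzymes Iars2, Mars2, Pars2, Vars2 and Lars2.

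The start windows of Yars and Iars are shown because each holds an element known to bind Atf4 with C/EBP partners, searched as TGATGNAA on both strands and marked in capitals. The Yars window lies at chr5:146819913-146820212 on the plus strand and the Iars window at chr17:15193603-15193902 on the minus strand (RefSeq, GRCr8, where the genes are named Yars1 and Iars1).
Yars: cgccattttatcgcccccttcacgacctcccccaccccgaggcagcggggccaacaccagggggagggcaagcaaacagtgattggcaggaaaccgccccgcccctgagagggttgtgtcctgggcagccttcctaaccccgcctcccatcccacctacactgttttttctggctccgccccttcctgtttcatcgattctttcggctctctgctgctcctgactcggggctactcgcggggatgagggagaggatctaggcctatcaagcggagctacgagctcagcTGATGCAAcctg
Iars: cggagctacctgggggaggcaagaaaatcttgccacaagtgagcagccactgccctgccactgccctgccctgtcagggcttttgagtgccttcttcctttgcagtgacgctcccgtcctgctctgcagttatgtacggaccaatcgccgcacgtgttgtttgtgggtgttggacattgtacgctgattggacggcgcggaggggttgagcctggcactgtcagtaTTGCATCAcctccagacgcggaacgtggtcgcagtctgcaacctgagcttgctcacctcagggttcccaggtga
The element was in 3 of the 4 windows found for the 5 lower synthetases, those of Yars, Iars and Tars, and in 3.82% of all windows. It begins at base 289 of the Yars window, after the gene start, and at base 227 of the Iars window.

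Of 38 proteasome subunits 3 were lower and 0 higher, where 3.26% and 2.51% of all tested genes were lower and higher. At an unadjusted p under 0.05, 0 were higher and 12 lower, where 2361 of all 11216 tested genes met that threshold in either direction. The difference was below 0 in 35 subunits and above 0 in 3, with a median of −0.21. Psmc1, an ATPase of the regulatory particle, stood at 140 ± 10.7 FPKM in sedentary and 104 ± 5.61 FPKM in exercised rats, with groups apart (−0.42 ± 0.08, limma adjusted p = 0.00727). Psmc5 (−0.41, limma adjusted p = 0.0182) and Psmb2 (−0.35, 0.0197) lost their calls in 2 and 3 of 10 leave-one-out fits, reaching 0.0511 and 0.0541. This list had 1 lower gene without exercised library 1 or sedentary library 5, 6 without exercised library 5, and 5 with the libraries scaled to the same sum.

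Genes of autophagy that passed were all higher. Of 36 genes of autophagy and the lysosome 6 were higher and 0 lower, with a median of 0.14 and 1 lower at an unadjusted p under 0.05. Gabarapl1, a protein of the autophagosome membrane, stood at 93, 80.3, 97.3, 99.2 and 82.9 FPKM in sedentary and at 143, 164, 169, 143 and 155 FPKM in exercised libraries. The gap between the groups, from 99.2 to 143 FPKM, was wider than the range of either (0.77 ± 0.08, limma adjusted p = 0.000107). Bnip3l, a receptor for the removal of mitochondria, stood at 22.5 ± 1.59 and 31.4 ± 3.17 FPKM (0.46 ± 0.09, limma adjusted p = 0.00879). Nbr1, a receptor for ubiquitinated cargo, stood at 64.7 ± 5.89 and 86.9 ± 7.09 FPKM (0.42 ± 0.09, limma adjusted p = 0.012). For these 3 genes, as for the other 3 that passed, the groups did not overlap. Atg13, of the initiating kinase complex (0.36 ± 0.08, limma adjusted p = 0.0197), lost its call without sedentary library 2 (0.0523) or 5 (0.0528). Atg4d (0.31, limma adjusted p = 0.0381) and Gabarapl2 (0.35, 0.04, chosen after its values were seen) each lost it in 7 of 10 leave-one-out fits, reaching 0.0901 and 0.102, and with the libraries scaled to the same sum (0.101 and 0.0578). This list had 3 higher genes without sedentary library 2 or 5.

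**Figure D4:**
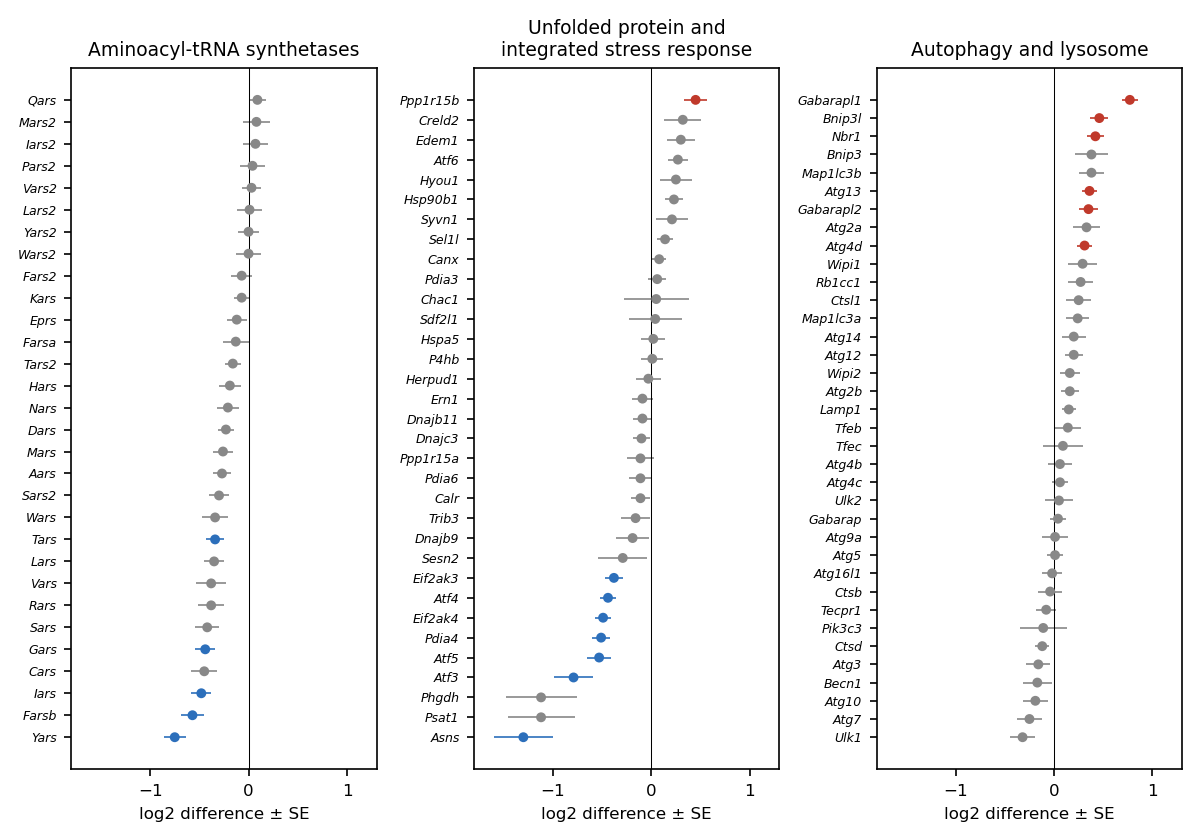
Log2 difference with SE, exercised minus sedentary, of each tested member of 3 lists, ordered by difference, with passing members in red (higher) or blue (lower) and the rest in grey. Most synthetases lie left of 0 with Yars at −0.75, Asns at −1.30 lies lowest in the stress response list, and Gabarapl1 at 0.77 lies highest in the autophagy list.

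In insulin and nutrient signalling 3 of 42 were higher and 2 lower, against 2.51% and 3.26% of all tested genes. Sgk2, a kinase related to Akt, had the smallest p of all genes tested. It stood at 27.4, 33.3, 37.2, 25.3 and 28.9 FPKM in sedentary and at 6.64, 5.36, 5.38, 6.22 and 6.52 FPKM in exercised libraries. The exercised libraries lay close together and far below the sedentary ones (−2.15 ± 0.15, limma adjusted p = 2.06e-06). Akt1 was lower with groups apart, from 62.9 ± 6.01 to 47 ± 5.41 FPKM (−0.42 ± 0.09, limma adjusted p = 0.012). The receptor substrate Irs1 (0.44, limma adjusted p = 0.0444), the mTOR inhibitor Deptor (0.50, 0.0279) and the AMPK subunit Prkaa2 (0.44, 0.0307) were higher, and lost their calls in 8, 6 and 6 of 10 leave-one-out fits, reaching 0.111, 0.0724 and 0.0781. With the libraries scaled to the same sum none of the 3 passed (0.0895, 0.0578 and 0.0627), and the list had 0 higher genes without exercised library 1 or 4 or sedentary library 1 or 2, and 1 without exercised library 2. Irs2 (0.72 ± 0.28, limma adjusted p = 0.142) and Insr (0.39, 0.113) did not pass, though Irs2 did without sedentary library 3 (0.0418).

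Heat shock chaperones moved in both directions. Of 32 tested 3 were higher and 4 lower, with a median of −0.10. Hspb1, a small heat shock protein, stood at 25, 21.1, 30.9, 39.6 and 30.7 FPKM in sedentary and at 62.4, 86, 71.1, 93.7 and 181 FPKM in exercised libraries. Exercised library 5 was the highest, and the lowest exercised library was well above the sedentary range (1.64 ± 0.24, limma adjusted p = 0.00165). Dnaja4 (0.82 ± 0.18, limma adjusted p = 0.0166) and Hsph1 (0.63 ± 0.16, 0.0269) were higher, and exercised library 5 was also the highest for both, at 20.6 and 74.2 FPKM. The Hsph1 call was lost in 5 of 10 leave-one-out fits, reaching 0.0677. Hspa8, the constitutive heat shock cognate, went the other way, at 9.93, 13.6, 15.4, 10.2 and 16.2 FPKM against 8.3, 5.42, 6.31, 5.22 and 5.33 FPKM (−0.97 ± 0.15, limma adjusted p = 0.00189). Its copies elsewhere in the genome can share reads. The J-domain cochaperones Dnajb1 (37.8 ± 6.16 to 24.7 ± 3.17 FPKM, −0.58 ± 0.13, limma adjusted p = 0.0146) and Dnajb4 (−0.44 ± 0.09, 0.0124) were lower, and so was Hspa4l (−0.68 ± 0.18, 0.0391), whose call was lost in 7 of 10 leave-one-out fits, reaching 0.1. Hsph1 and Hspa4l were chosen after their values were seen.

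Metallothioneins bind zinc and copper and are induced by metals and glucocorticoids. Of 14 genes of metallothioneins and zinc handling 2 were higher and 0 lower, with 2 lower at an unadjusted p under 0.05. The entry named MT1 stood at 3.39, 3.22, 2.03, 5.11 and 3.81 FPKM in sedentary and at 38.2, 14.4, 11.9, 19.6 and 27.7 FPKM in exercised libraries. The entry named Mt1a stood at 9.35, 4.11, 4.7, 8.7 and 6.16 FPKM against 34.8, 14.5, 15.7, 23.7 and 43.4 FPKM. In both, exercised libraries 1 and 5 were the highest and the groups were apart (2.29 ± 0.33, limma adjusted p = 0.00166, and 1.78 ± 0.37, 0.0113). Mt2A did not pass (1.23 ± 0.37, limma adjusted p = 0.061) and was chosen after its values were seen. It passed without sedentary library 1 (0.047), where the list had 3 higher genes, with a filter at 5 FPKM (0.0485) and with only the 2 groups fitted (0.0342). These short genes are near copies, so reads may be shared among them.

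The start window of the RefSeq gene Mt1, which lists Mt1a as another name, is shown for its metal response elements. Whether the entry MT1 or the entry Mt1a of the deposited table stands for it cannot be told from the names. The window lies at chr19:10832926-10833225 (GRCr8, minus strand), and capitals mark the element core, searched as TGCACNC or TGCGCNC on both strands.
Mt1: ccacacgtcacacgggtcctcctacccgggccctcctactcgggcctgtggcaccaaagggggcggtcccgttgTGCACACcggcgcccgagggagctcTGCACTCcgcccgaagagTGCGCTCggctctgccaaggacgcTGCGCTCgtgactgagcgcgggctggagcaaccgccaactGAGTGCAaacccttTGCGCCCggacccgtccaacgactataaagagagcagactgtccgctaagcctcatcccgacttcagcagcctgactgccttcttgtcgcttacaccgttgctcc
The core occurs 6 times in this window and 4 times in that of Mt2A, and at least 1 copy is in 25% of all windows.

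Smaller lists held single calls, where 2.51% of all tested genes were higher and 3.26% lower. In the growth hormone and IGF list 1 of 20 was higher and 0 lower, with 0 lower also at an unadjusted p under 0.05. Socs2, a growth hormone target that dampens its receptor, stood at 1.32, 3.65, 1.34, 3.81 and 7.88 FPKM in sedentary and at 15.8, 8.75, 23.8, 12.2 and 10.2 FPKM in exercised libraries. The groups came close at sedentary library 5 and exercised library 2 (1.82 ± 0.44, limma adjusted p = 0.0229). The call was lost without exercised library 1 (0.0579) or 3 (0.055) or sedentary library 1 (0.0583) or 3 (0.051), and the list had 2 higher genes without sedentary library 4. Igf1, the main product of growth hormone action in liver, did not pass (0.11 ± 0.12, limma adjusted p = 0.656). In the circadian list 1 of 20 was higher and 0 lower, with 2 lower at an unadjusted p under 0.05. That gene was Nampt, of NAD synthesis (54.5 ± 9.3 to 86.3 ± 14.7 FPKM, 0.65 ± 0.16, limma adjusted p = 0.0234), a call that fell away without exercised library 1 (0.063) or 3 (0.0562). The output gene Dbp (0.31, limma adjusted p = 0.388), Per1 (−0.15, 0.869) and Nr1d1 (−0.14, 0.805) did not pass.

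Of 24 immediate early factors 2 were lower and 0 higher, with 1 higher at an unadjusted p under 0.05 and a median of −0.30. These were Atf3, given above, and Jund (81.6 ± 7.47 to 53.9 ± 8.86 FPKM, −0.60 ± 0.11, limma adjusted p = 0.00668). This list had 1 lower gene without exercised library 1, 2 or 4 or sedentary library 1, 2 or 5. Of 21 cell cycle genes 3 were lower and 0 higher, with 1 higher at an unadjusted p under 0.05, and all 3 encode subunits of the replicative helicase. Mcm3 stood at 2.52, 1.84, 3.3, 2.34 and 2.23 FPKM in sedentary and at 0.675, 1.35, 0.363, 1.1 and 1.78 FPKM in exercised libraries (−0.78 ± 0.19, limma adjusted p = 0.0278). Mcm5 (−0.96, limma adjusted p = 0.0454) and Mcm6 (−0.93, 0.0349) overlapped between groups. The 3 calls were lost in 5, 6 and 7 of 10 leave-one-out fits, reaching 0.0717, 0.112 and 0.0845. The list ran from 0 lower genes without exercised library 1 or 3 or sedentary library 1 or 3, and 1 without sedentary library 4 or 5, to 5 without sedentary library 2 and 6 without exercised library 5.

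Iron and heme genes had 2 higher and 1 lower of 32, beside 2.51% higher and 3.26% lower over all tested genes. Slc40a1, the iron exporter ferroportin, stood at 33.4 ± 3.56 FPKM in sedentary and 47.3 ± 2.88 FPKM in exercised rats, with groups apart (0.49 ± 0.10, limma adjusted p = 0.00766). Ppox, of heme synthesis, stood at 17.5 ± 2.05 and 11.5 ± 1.45 FPKM (−0.57 ± 0.11, limma adjusted p = 0.00869). The metalloreductase Steap4 (0.39, limma adjusted p = 0.0378) lost its call in 8 of 10 leave-one-out fits, reaching 0.0944, and with the libraries scaled to the same sum (0.0571), and the list then had 1 higher gene in 7 of the 10 fits. Of 20 lipoprotein genes 1 was higher and 0 lower, with 1 lower at an unadjusted p under 0.05. It was Apoa5, which promotes clearance of plasma triglyceride (351 ± 90.2 to 530 ± 61 FPKM, 0.62 ± 0.16, limma adjusted p = 0.0349), and it did not pass in 6 leave-one-out fits, reaching 0.0886, and with the libraries scaled to the same sum (0.0574). In that list 1 gene was lower without exercised library 2 or sedentary library 4. The share of higher genes in the acute phase list was near the 2.51% over all tested genes. Of 56 acute phase, coagulation and complement genes 2 were higher and 0 lower, with 0 lower also at an unadjusted p under 0.05. These were Pros1, of protein S (0.37, limma adjusted p = 0.0234), and F11, of factor XI (0.60, 0.0291), each lost in 5 leave-one-out fits, reaching 0.0653 and 0.0775, and with the libraries scaled to the same sum (0.0881 and 0.0546). That list ran from 0 higher genes without exercised library 1 or 2 or sedentary library 2 or 5 to 5 without sedentary library 3. In the ketone body list of 8 genes Aacs was lower and the monocarboxylate carrier Slc16a7 higher (0.32, limma adjusted p = 0.0459), a call absent in 9 of 10 leave-one-out fits, reaching 0.114, and with the libraries scaled to the same sum (0.12).

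Several genes with large differences belonged to no list. Otub2, a deubiquitinase, stood at 30.8, 29.4, 28.7, 15.7 and 22.7 FPKM in sedentary and at 6.8, 8.7, 9.22, 6.95 and 7.22 FPKM in exercised libraries. Sedentary library 4 was again the lowest of its group and the groups were apart (−1.56 ± 0.16, limma adjusted p = 5.75e-05). Tubb2a, a beta-tubulin, stood at 16.4 ± 1.97 and 5.28 ± 1.68 FPKM (−1.51 ± 0.20, limma adjusted p = 0.000611). Sult4a1, a sulfotransferase-like protein best known from brain, differed by −1.85 ± 0.36 (limma adjusted p = 0.0084), Kbtbd12 by −1.53 ± 0.27 (0.00445) and Commd6 by −1.66 ± 0.28 (0.0033). Apex1, the main endonuclease of base excision repair, stood at 61.9, 63.4, 54, 47.5 and 68.8 FPKM against 24.3, 24.9, 27.3, 28.9 and 29.1 FPKM (−1.10 ± 0.10, limma adjusted p = 3.65e-05). Hes6, a bHLH repressor-family factor, stood at 259 ± 29.2 and 117 ± 22.2 FPKM (−1.15 ± 0.12, limma adjusted p = 0.000107). In both, the groups were far apart, and both were chosen after their values were seen. Higher genes outside the lists included Upp2, the hepatic uridine phosphorylase (7.69 ± 3.37 to 18.7 ± 2.9 FPKM, 1.26 ± 0.22, limma adjusted p = 0.00385), the secreted phospholipase Pla2g12a (1.37 ± 0.26, 0.0075) and Fam89a (1.36 ± 0.26, 0.00694).

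Some lists held no passing gene in limma's test. These were glycogen metabolism (0 of 18; 2 higher and 2 lower at an unadjusted p under 0.05), hepatokines (0 of 22; 3 and 2), the nuclear-encoded respiratory chain (0 of 56; 1 and 3), cytosolic ribosomal proteins (0 of 67; 0 and 2) and hepatocyte transcription factors (0 of 34; 7 and 0). That unadjusted threshold was met by 2361 of all 11216 tested genes, in either direction. Among zonation genes, 1 of 14 pericentral markers was higher (Cyp2e1) with a median of 0.29, and 2 of 17 periportal markers (Pck1 and Asl) with a median of 0.08, and 0 of either were lower. At an unadjusted p under 0.05, 1 pericentral and 0 periportal markers were lower. The 25 antioxidant genes had 0 higher, with 5 higher at an unadjusted p under 0.05, and 1 lower, and 0 were lower in each leave-one-out fit except those without exercised library 3 or sedentary library 4. Without sedentary library 3 or 4 there were 2 higher pericentral markers, and without exercised library 1 or 4 or sedentary library 1, 2 or 5 there were 0. Without exercised library 1 there were 0 higher periportal markers, without exercised library 2 or 4 or sedentary library 1, 2 or 5 there was 1, and without exercised library 3 there were 3. Of the lists with no call in a direction, single members passed without exercised library 4 or sedentary library 3 (1 higher, glycogen), exercised library 5 (1 higher and 2 lower, hepatokines), exercised library 5 or sedentary library 3 (1 lower, ribosomal proteins), sedentary library 4 (1 higher, hepatocyte factors), exercised library 3 or sedentary library 4 (1 higher, antioxidant genes), exercised library 1 (1 higher, lipid droplet), sedentary library 3 (1 higher in each of glycolysis and the cell cycle) and sedentary library 4 (1 lower, amino acid breakdown), beside those given above for cholesterol uptake and lipoprotein genes.

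Markers of other liver cells were measured beside these results. None of the 11 marker lists held a passing gene. The summed FPKM of the 9 Kupffer cell and macrophage markers in the table ran from 337 to 570 in sedentary and from 488 to 692 in exercised libraries, and 5 of the 8 tested were higher at an unadjusted p under 0.05, with a median of 0.31. Over all tested genes 2361 of 11216 met that threshold, in either direction. The 9 endothelial markers summed to 95.8 to 141 FPKM in sedentary and 124 to 167 FPKM in exercised libraries, with a median of 0.20 and 0 past an unadjusted p of 0.05. Stellate cell markers summed to 56.5 to 72.2 and 51.9 to 83.7 FPKM, cholangiocyte markers to 15.6 to 32 and 15.6 to 28 FPKM, and erythroid markers to 763 to 1613 and 894 to 1677 FPKM. Their part in the differences above was not tested.

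**Figure D5:**
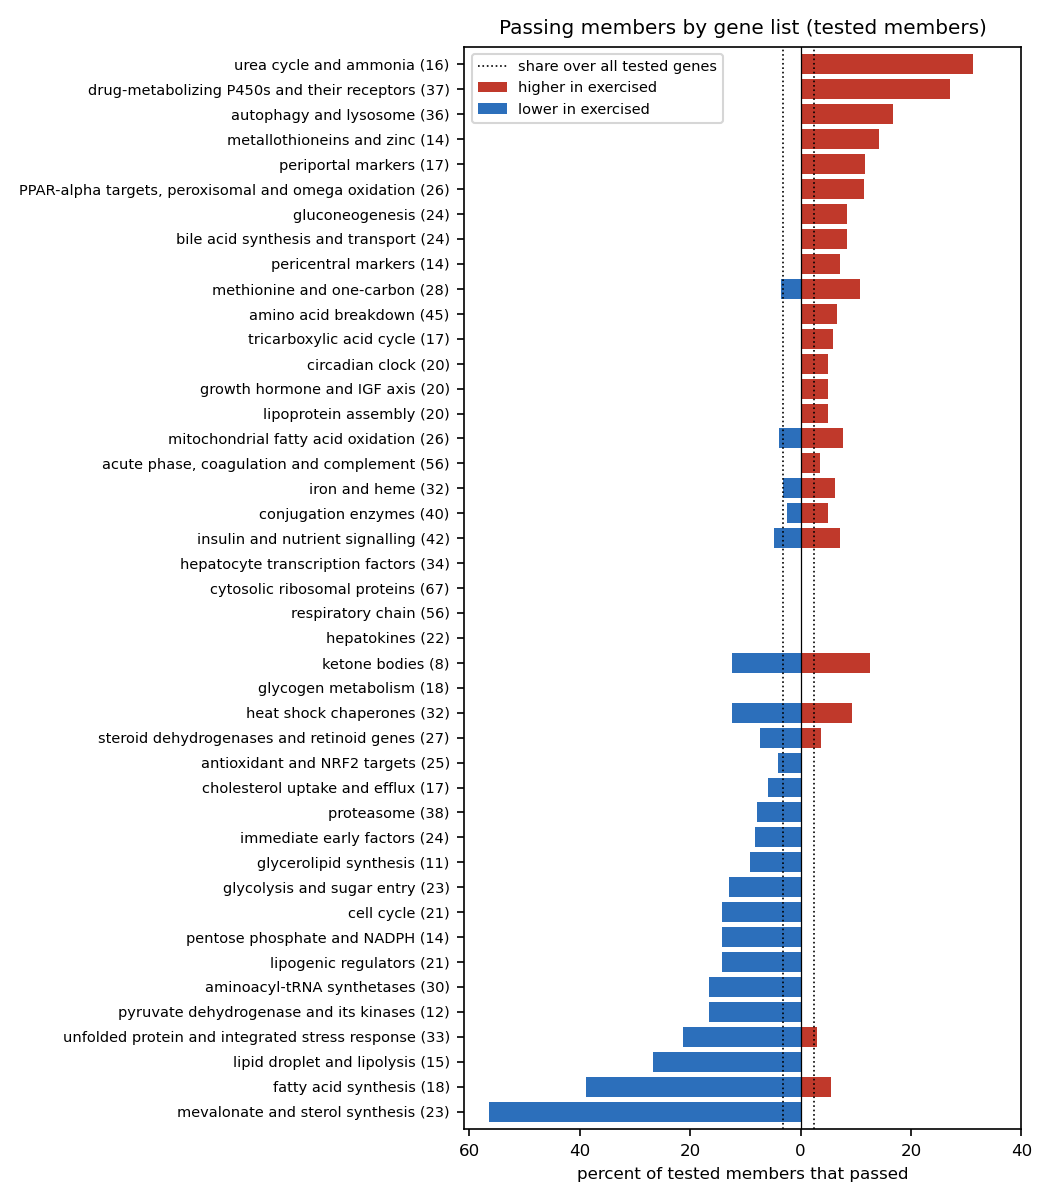
Percent of the tested members of each of the 43 pathway lists that were higher (red, right) or lower (blue, left) in exercised rats, with the number tested in brackets and dotted lines at the shares over all tested genes, 2.51% higher and 3.26% lower. Mevalonate and sterol synthesis extends farthest to the left, with 13 of 23 lower, and urea cycle and ammonia farthest to the right, with 5 of 16 higher.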

How the data were processed

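Liver RNA of 15 rat libraries was sequenced, and the deposited table, made by the authors, holds FPKM for each Ensembl gene in each library. The submitters' processing notes name Cufflinks, Trimmomatic and the build Rnor_5.0, giving neither versions nor order, and the aligner and filters are not given in the sources used here. Of 26407 entries 2 repeated an identifier and were dropped, 5795 had no name, and 27 names had become dates. Of entries sharing a symbol the most abundant stood for it in the lists and among named genes, which set 737 aside there. Those entries were still open to testing and could be among the genes counted. The value 999999999 was read as missing, in 6 of the 10 libraries compared for Alb and in 1 for Slc27a2, and both genes were left out. Genes with near-identical copies are uncertain. Read totals were not used here, so only relative depth, from the steps of low values, is given, and no counting interval.

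Genes that averaged 1 FPKM or more across the 15 libraries were tested as log2(FPKM + 1), which understates fold differences of low genes, with no further scaling. The 3 groups were fitted together in limma 3.58.1 (R 4.3.3), letting the variance follow the mean level, and the exercised minus sedentary contrast was tested on both sides. P-values were adjusted by Benjamini-Hochberg over all 11216 genes, and a gene passed under 0.05. An exact permutation test of 5 against 5 could not go below 0.00794. Members, lists and tests were chosen with earlier results of these data known, and lists are described by counts and medians, with no set test. Named genes were the 15 passing genes with a symbol that differed most each way, up to 5 passing members of each list by p, up to 2 abundant members that did not pass, and a panel. Others are marked in the text, and Gm6484 and Plekhd1, which the rule names, are not described. Some other genes that the rule names are not reported here. Gene start windows are from RefSeq (GRCr8), matched by symbol or synonym. No batch is given in the labels. Alternatives covered pseudocounts, filters, scalings, other variance models, a replicate block and leaving out each library. Python 3.11.15, numpy 2.4.6, pandas 2.3.3, scipy 1.17.1 and matplotlib 3.10.9 were used.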

Additional observations from a re-analysis of the deposited data

Results flagged for a closer look

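For each gene given values in the text, the 5 libraries of each group were checked for 1 library set apart from the rest by Dixon's ratio. Of 312 groups checked 14 held such a library. Chance alone would flag about 1 in 20 of unselected, independent groups. These genes were chosen partly by their values and share the same libraries, so that rate is no reference for the number found. Sedentary library 4 was apart in 4 genes. It was lowest for Fasn, at 711 FPKM against 1138 to 1374, for Pnpla3, at 714 FPKM against 950 to 1063, and for Ugt2b, at 3.68 FPKM against 642 to 1360, and highest for Ppm1k, at 15.5 FPKM against 6.79 to 7.86. Sedentary library 5 was highest for Asns, at 11 FPKM against 2.11 to 3.3, and for Hspa4l, at 5.9 FPKM against 3.47 to 3.91. It was lowest for Sds, at 44.3 FPKM against 144 to 229, and for F11, at 19.2 FPKM against 24.1 to 25.6.

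Sedentary library 2 was highest for Abhd5, at 69 FPKM against 45.9 to 50.9, and lowest for Fh, at 117 FPKM against 126 to 130. Among exercised libraries, library 2 was lowest for Retsat, at 60.2 FPKM against 155 to 182, and library 1 for Pdia4, at 144 FPKM against 189 to 195. Library 5 was lowest for Slc40a1, at 42.4 FPKM against 47.4 to 49.4, and library 3 was highest for Rpia, at 8.85 FPKM against 6.3 to 6.74.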

How the results depend on the processing

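The 282 higher and 366 lower genes became 161 and 314 with the libraries scaled to the same sum, and 516 and 592 at a threshold of 0.1, and the causes were not tested. Without each library in turn the counts ran from 134 to 305 higher and from 197 to 349 lower. With a replicate block 173 genes were higher and 276 lower. In the other 11 settings, pseudocounts, filters, scalings and variance models, the counts stayed within 1.5 times, between 201 and 360 higher and between 254 and 450 lower. Numbers of libraries are shared between the groups. Deviations of same-numbered libraries had correlations of 0.0237, 0.00128, −0.267, 0.087 and 0.126, and 1 of 5 exercised libraries correlated best with its own number. Taken over all tested genes, these correlations showed no consistent match by number. They cannot settle whether the numbers pair the samples. Of 133 passing genes with values in the text, 77 passed in every fit without a library and 88 in each of the other 13 settings, and 0 changed direction. Scaling to the same sum ended 29 of these calls, the fit of 2 groups alone 27, the block 31 and the absence of a filter 23. Of the genes that did not pass, 3 passed under some alternative. Absolute depth is unknown, and log2(FPKM + 1) compresses differences near 1 FPKM.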

Other observations

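Some genes varied more within the groups than between them, and the 2 given here were chosen after their values were seen. Ugt2b, a UDP-glucuronosyltransferase, stood at 659, 1360, 642, 3.68 and 1302 FPKM in sedentary libraries 1 to 5 and at 1.48, 661, 850, 2.54 and 0.699 FPKM in exercised libraries 1 to 5. It was either at 642 FPKM or more or at 3.68 FPKM or less, with 1 sedentary and 3 exercised libraries low, and the difference did not pass limma's test (−3.74 ± 2.42, adjusted p = 0.409). Genes of the same family can share reads. Rgs16, a regulator of G protein signalling, stood at 22.2, 157, 88.2, 3.4 and 13.4 FPKM in sedentary and at 8.34, 11.1, 73.1, 27.2 and 82 FPKM in exercised libraries (−0.02 ± 1.16, limma adjusted p = 0.996).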
